A study of Mus musculus with 6 samples.

Results

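Chemokine receptors were examined in the hippocampus of mice with reduced cerebral blood flow. The members were the 8 genes Ccr1, Ccr2, Ccrl2, Cxcr3, Cxcr4, Cxcr6, Ackr1 and Ackr3, found by symbol among the 54752 genes counted, and each symbol matched a single gene. RNA-seq libraries of the whole right hippocampus came from wild-type male C57BL/6 mice (C57BL/6 J in the paper's methods), 14 weeks old by the labels. The 3 mice of the BCAS group (bilateral carotid artery stenosis) carried a wire microcoil around each common carotid artery, with the narrower coil on the right, and the 3 sham mice had the same operation without coils. Tissue was taken 3 weeks after surgery, each library came from a single mouse, and the mice were those that had survived the operation.

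Chemokine receptors are G protein-coupled receptors with a 7-helix fold that steer the movement of leukocytes along gradients of small secreted proteins, the chemokines. Ligand binding releases Gi proteins, which act through phosphoinositide 3-kinase and Rac to move the cell, and the receptor is then switched off by GRK kinases and arrestins. Atypical receptors (the ACKR genes, and CCRL2) bind ligands without this Gi signal and instead scavenge, transport or present them. In the brain, CX3CR1 is the chemokine receptor typical of resident microglia, CCR2 is known for inflammatory monocytes, CXCR3 and CXCR6 for effector T and NK cells, CXCR4 with its ligand CXCL12 for cell positioning in the dentate gyrus and for leukocyte retention, and ACKR1 for venular endothelium and red cells.

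Of the 8 receptors, 6 rose after BCAS and none fell. The rise passed an adjusted P under 0.05 and a log2 fold change above 1 (edgeR quasi-likelihood test, adjusted over 18617 genes). For comparison, 8.47% of all tested genes were called up by this rule and 0.999% were called down. The 8 receptors were chosen with earlier results of these data known, so their count does not describe chemokine receptors in general. Of the 7 other listed receptors tested, 2 rose and 1 fell. The 6 were Cxcr6, Cxcr3, Ccr2, Ccrl2, Cxcr4 and Ccr1, in order of log2 fold change from 4.84 down to 1.38, and in each of them every BCAS mouse lay above every sham mouse, as was the case for 25.3% of tested genes. The atypical receptors Ackr1 and Ackr3 were not called, with log2 fold changes of -0.30 and -0.14. The median log2 fold change of the 8 receptors was 1.84, against 0.018 over all tested genes. All 8 passed the filter on low counts, but Cxcr3 and Cxcr6 passed it only through the BCAS libraries, since none of the 3 sham libraries reached its minimum of 0.302 CPM (the count scaled to the library size). Their rise was therefore a condition of being tested.

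**Figure D1:**
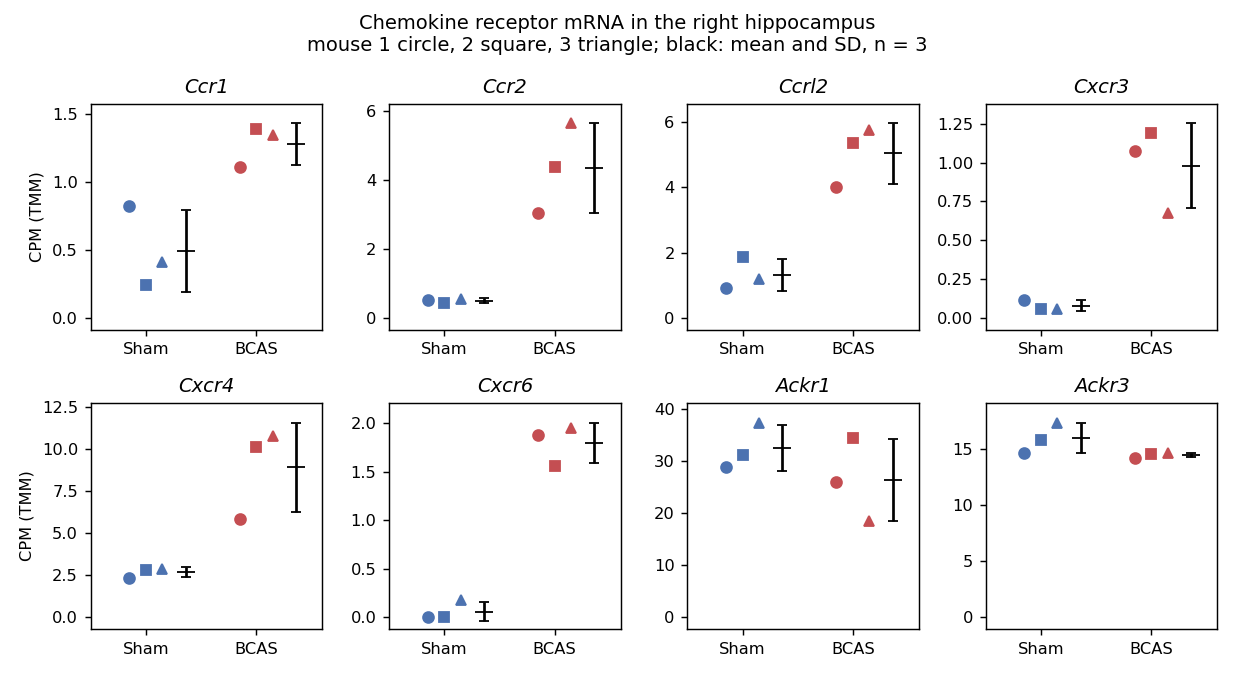
CPM of each receptor in each mouse, with sham in blue, BCAS in red and the mean and SD of 3 mice in black. In 6 panels all red points lie above all blue points, Ackr1 overlaps, and the 3 BCAS values of Ackr3 lie just below the sham values.

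Since 6 of the 8 receptors rose, the sequence before the start sites of all 8 was searched on both strands for 5 short motifs. These were an interferon-stimulated response element (GAAA, any 2 bases, GAAA), a STAT element (TTCNNNGAA), a pair of NF-kappa B forms (GGGNNTTCC, and GGG, any 3 bases, TTCC) and a PU.1 core (GAGGAA). RefSeq windows (GRCm38.p6, 250 bases before to 50 after the start) were found for all 8 receptors, in 10 windows. Of 32851 such windows in all, 3.44%, 8.3%, 5.82%, 5.56% and 28.3% held the motifs in that order. Among the receptors that rose, only Ccr1, Cxcr3 and Ccrl2 held a match. The 250 bases before the start of Ccr1 (chr9:123968693-123968942, minus strand) and Ccrl2 (chr9:111057519-111057768, minus strand) are shown because they hold a match outside annotated transcript, with the matched bases in capitals (GAGGAA for Ccr1, GGGNNTTCC for Ccrl2).
Ccr1: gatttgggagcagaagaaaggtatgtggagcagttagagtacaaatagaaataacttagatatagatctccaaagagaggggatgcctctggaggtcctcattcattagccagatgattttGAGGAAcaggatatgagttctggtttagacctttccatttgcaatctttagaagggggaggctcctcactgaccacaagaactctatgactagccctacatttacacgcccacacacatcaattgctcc
Ccrl2: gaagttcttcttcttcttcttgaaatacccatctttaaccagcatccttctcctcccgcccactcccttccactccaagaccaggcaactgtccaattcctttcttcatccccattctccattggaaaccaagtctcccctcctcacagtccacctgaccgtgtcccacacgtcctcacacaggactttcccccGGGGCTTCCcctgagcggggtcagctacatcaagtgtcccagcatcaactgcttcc
The matches began at position -129 for Ccr1 and position -56 for Ccrl2, counted back from the base before the start. They overlapped no other match. In Cxcr3 the reverse of GAGGAA began at position -14, inside a longer annotated first exon. Ackr1 held a reverse GGGNNTTCC at position -131, inside an exon of the neighbouring gene Cadm3. Ccr2, Cxcr4, Cxcr6 and Ackr3 held none of these letters in their windows. A match describes the letters alone, and the PU.1 core stood in 28.3% of all windows.

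The libraries held 34301711 to 35607098 counts in the sham group and 29652456 to 31892083 in the BCAS group, each mate of a read pair counted separately. A limit of 3 counts, which covers counting error alone, lay at 0.0875 to 0.0995 CPM. Hippocampal neuron markers were present in every library, with a summed level of 4262 to 4742 CPM in sham and 2158 to 3266 CPM in BCAS mice. Choroid plexus markers, whose tissue adjoins the hippocampus, ranged from 69.8 to 4078 CPM in sham and from 40.3 to 5918 CPM in BCAS mice, overlapping between the groups. In bulk tissue, more cells of a type and more RNA per cell cannot be told apart.

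Of Ccr1, Ccr2 and Ccrl2, Ccr2 rose most. Ccr2 (chr9:124101950-124113557, plus strand, mm10) encodes the receptor for CCL2 that brings classical monocytes out of the marrow and into inflamed tissue. The sham mice had 0.531, 0.419 and 0.554 CPM and the BCAS mice 3.05, 4.38 and 5.64 CPM. The groups were far apart, with BCAS mouse 3 (numbered as in the labels) highest and BCAS mouse 1 lowest of its group. The mean went from 0.501 ± 0.0722 to 4.36 ± 1.30 CPM (SD, n = 3), a ratio of 8.69 and a fitted log2 fold change of 3.11 (SE 0.31, adjusted P = 0.000159). Of the 100-base windows along its longest transcript, 53 of 5629 (0.94%) also occur in transcripts of another gene, and reads from those could not be assigned with certainty.

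Ccrl2 (chr9:111054486-111057519, minus strand) encodes an atypical receptor that holds chemerin on the cell surface. Its level was 0.915, 1.86 and 1.20 CPM in the sham mice and 4.0, 5.37 and 5.77 CPM in the BCAS mice. The lowest BCAS value was above the highest sham value, that of sham mouse 2. Its mean was 1.32 ± 0.483 CPM in sham and 5.05 ± 0.928 CPM in BCAS mice, and the log2 fold change was 1.93 (SE 0.29, adjusted P = 0.0016).

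Ccr1 (chr9:123962124-123968692, minus strand), a receptor of myeloid cells for CCL3, CCL5 and other CC chemokines, had the smallest rise and the weakest call. The sham counts were 28, 8 and 14 and the BCAS counts 36, 42 and 42, equal to 0.826, 0.239 and 0.408 CPM against 1.11, 1.39 and 1.35 CPM. Sham mouse 1 was the nearest to the BCAS group. The mean was 0.491 ± 0.302 CPM in sham and 1.28 ± 0.153 CPM in BCAS mice, with a log2 fold change of 1.38 (SE 0.45, adjusted P = 0.0473). The call was lost when any mouse other than sham mouse 1 was left out (adjusted P from 0.0716 to 0.142), and without sham mouse 1 the log2 fold change was 1.97.

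Among the CXC receptors, Cxcr6 rose from at or near 0. Cxcr6 (chr9:123806475-123811760, plus strand) encodes the receptor for CXCL16 that is known for tissue-resident T cells, and lies inside Fyco1 on the opposite strand without sharing exon bases. Its counts were 0, 0 and 6 in the sham mice and 61, 47 and 61 in the BCAS mice. The sham levels were 0, 0 and 0.175 CPM and the BCAS levels 1.88, 1.56 and 1.96 CPM. All sham counts of Cxcr6 came from sham mouse 3, and the BCAS mice were close to each other. The fitted log2 fold change was 4.84 (SE 0.79, adjusted P = 0.00232). Without sham mouse 3 both remaining sham libraries were at 0, and the BCAS mean was at least 20.2-fold higher than the limit of 3 counts per library.

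Cxcr3 (chrX:101731535-101734269, minus strand) encodes the receptor for the interferon-induced chemokines CXCL9, CXCL10 and CXCL11 and is carried by effector T and NK cells. Sham libraries held 4, 2 and 2 counts and BCAS libraries 35, 36 and 21, which corresponds to 0.118, 0.0599 and 0.0583 CPM against 1.08, 1.19 and 0.673 CPM. Here BCAS mouse 3 was the lowest of its group, whereas it was the highest for Ccr2, Ccrl2, Cxcr4 and Cxcr6. Among all genes called up, 83.2% had their highest level in BCAS mouse 3. The log2 fold change of Cxcr3 was 3.58 (SE 0.51, adjusted P = 0.00115). With the sham libraries of Cxcr3 and Cxcr6 at or near the limit of detection, the size of either rise is imprecise.

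Cxcr4 (chr1:128588199-128592293, minus strand), the signalling receptor for CXCL12, was the most abundant of the receptors that rose. It measured 2.33, 2.78 and 2.89 CPM in the sham mice and 5.88, 10.1 and 10.8 CPM in the BCAS mice. BCAS mouse 1 was the lowest of its group and still at more than the highest sham value. Its mean of 2.67 ± 0.295 CPM in sham mice compared with 8.93 ± 2.67 CPM after BCAS (log2 fold change 1.74, SE 0.25, adjusted P = 0.00111).

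The atypical receptors Ackr3 and Ackr1 gave no call. Ackr3 (chr1:90203980-90216751, plus strand) encodes the receptor that takes up CXCL12 and so shapes the gradient seen by CXCR4. Its level was 14.7, 15.8 and 17.4 CPM in sham and 14.3, 14.6 and 14.7 CPM in BCAS mice. The highest BCAS value (14.65) lay just below the lowest sham value (14.70), a separation in this direction that 22.7% of tested genes showed, and the log2 fold change was -0.14 (SE 0.11, adjusted P = 0.364). Within each mouse, the log2 ratio of Cxcr4 to Ackr3 was -2.62, -2.48 and -2.56 in sham and -1.27, -0.52 and -0.44 in BCAS mice. It was higher by 1.81 after BCAS, with no overlap (exact two-sided permutation p = 0.1, the smallest that 3 against 3 mice can give, adjusted 0.143 over 10 ratios tested), so this test cannot reach 0.05 here. Cxcr4 and Ackr3 were each separated already, in opposite directions, so the lack of overlap of their ratio follows from those values.

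Ackr1 (chr1:173331886-173333750, minus strand) encodes the Duffy receptor, which carries chemokines across venules. It was measured at 28.9, 31.2 and 37.5 CPM in sham and 26.1, 34.5 and 18.6 CPM in BCAS mice. The groups overlapped, and the log2 fold change was -0.30 (SE 0.20, adjusted P = 0.294). Leaving out BCAS mouse 2 gave -0.55 with an adjusted P of 0.0319, under the fold threshold. Cadm3, a neuronal adhesion gene on the same strand, shares 361 of the 1405 exon bases of Ackr1, and reads in the shared bases were not counted. Cadm3 measured 396.7, 403 and 427 CPM in sham and 310.1, 345 and 218 CPM in BCAS mice, in the same order of mice within each group as Ackr1. The log2 fold change of Cadm3 was -0.49 (SE 0.15, adjusted P = 0.0377). Of the 5 venular endothelial markers, Vwf rose from 19.1 ± 4.61 to 51.8 ± 18.3 CPM (log2 fold change 1.44) and Vcam1 from 36.5 ± 4.65 to 77.9 ± 16.5 CPM (1.09), Lrg1 was not called (0.97, adjusted P = 0.104), and Selp and Sele were too low to test. Selp had 0, 0 and 2 counts in sham and 1, 18 and 12 counts in BCAS mice, and Sele 0 in each sham mouse and 2, 13 and 11 counts in BCAS mice. The summed venular level was 54.0 to 59.8 CPM in sham and 104 to 170 CPM in BCAS mice. Whether reads from Cadm3 transcripts entered the Ackr1 count was not tested.

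Per 1000 exon bases (RPKM, from the same counts), the order of the receptors could be set. In sham mice the mean level was 23.1 for Ackr1, 4.77 for Ackr3, 1.48 for Cxcr4, 0.509 for Ccrl2 and 0.173 for Ccr1. Ccr2 (0.0742), Cxcr3 (0.0455) and Cxcr6 (0.0302) followed, and their sham ranges overlapped. In BCAS mice the RPKM level of Cxcr4 was 4.94 ± 1.47 and that of Ackr3 4.33 ± 0.0624, with overlapping ranges, so these neighbours in the order did not differ beyond their spread. Ackr1 had the highest value at 18.8 RPKM, and Ccrl2 stood at 1.94. The Ackr1 values divide by all 1405 exon bases, of which 1044 could be counted, and whether Cadm3 reads add to them was not tested, so the place of Ackr1 in the order is uncertain. Cxcr6 at 0.931, Ccr2 at 0.644, Cxcr3 at 0.567 and Ccr1 at 0.453 RPKM closed the order, each overlapping the next. By mean level alone, Ccr1 stood at position 5 in sham and position 8 in BCAS mice. Its range overlapped that of Cxcr6 in sham and those of Cxcr3 and Ccr2 in BCAS mice. In sham mice it lay above the ranges of Ccr2 and Cxcr3 (lowest Ccr1 value 0.0845, highest Ccr2 value 0.0819). In BCAS mice it lay below that of Cxcr6 (highest Ccr1 value 0.491, lowest Cxcr6 value 0.807). Within each sham mouse Ccr1 was above Ccr2 and Cxcr6, and within each BCAS mouse it was below both. Against Cxcr3 the BCAS mice differed, with Ccr1 the higher in BCAS mouse 3. This change of place was not tested.

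Markers of several leukocyte types that carry these receptors were higher in the same BCAS libraries. The counts of markers below stand beside 8.47% of all tested genes called up. All 11 microglial markers rose, with a median log2 fold change of 2.58, and their summed level went from 332 to 354 CPM in sham to 1709 to 2833 CPM in BCAS mice. Of 6 monocyte markers 3 rose and 2 were too low to test, and their sum went from 0.120 to 0.729 CPM to 4.06 to 8.91 CPM. The monocyte marker Ly6c2 had 0, 1 and 0 counts in sham and 39, 74 and 71 counts in BCAS mice. Of 10 T and NK cell markers 7 rose, Cd2 did not pass and Ncr1 and Gzmb were too low to test, with a sum of 1.00 to 2.16 CPM in sham and 9.95 to 11.4 CPM in BCAS mice. Of these called markers, the 3 monocyte markers and 6 of the 7 T and NK cell markers (Trac excepted) reached the filter minimum in no sham library and could be tested only because they were higher in BCAS mice. Cd3d, part of the T cell receptor complex, had 1, 0 and 0 counts in sham and 20, 24 and 30 counts in BCAS mice. Of 6 neutrophil markers 3 were tested and only Csf3r rose, S100a8 and Retnlg were too low to test, and Ly6g was at 0 in all 6 libraries. Of 6 dendritic cell markers Itgax (log2 fold change 6.21) and Siglech (2.30), which is also on the microglial list, rose, while Flt3 (-0.30), Zbtb46 (0.07), Clec9a (0.66) and Cd209a (0.79) were not called. Of 5 B cell markers 3 were tested and only Cd79b rose (2.31). Among other cells, 1 of 5 astrocyte markers (Aqp4, 1.67) and 2 of 6 fibroblast markers (Col1a1, 2.13, and Col1a2, 1.52) rose, the other 4 astrocyte markers had an adjusted P under 0.05 with a smaller increase, and none of the 5 oligodendrocyte markers was called. Border macrophage markers rose in 4 of 6 cases, from a sum of 10.3 to 14.8 CPM to 25.7 to 33.5 CPM. None of the 6 endothelial markers passed both thresholds, but Cdh5 (log2 fold change 0.98), Flt1 (0.60) and Pecam1 (0.52) had an adjusted P under 0.05, and the sum was 183 to 204 CPM in sham and 251 to 278 CPM in BCAS mice. None of the 5 red cell markers was called. The part of these cell types in the rise of any receptor was not tested.

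Set against the mean of the 11 microglial markers within each mouse, no receptor had an adjusted p under 0.05, which the exact test cannot reach at this number of mice. The log2 ratio of Cxcr6 was higher in BCAS than in sham mice by 1.79 and that of Ccr2 by 0.46, both without overlap between the groups (exact two-sided permutation p = 0.1 each). The difference was -1.06 for Ccr1, -0.80 for Cxcr4, -2.81 for Ackr1 and -2.61 for Ackr3, again without overlap (exact two-sided permutation p = 0.1 each). All of these had an adjusted value of 0.143 over the 10 ratios. A gene with no change would also fall in this ratio, since the 11 markers rose by a median log2 fold change of 2.58. The share of all genes without overlap in this ratio was not determined. The groups overlapped for Ccrl2 (-0.55, exact permutation p = 0.2, adjusted 0.25) and for Cxcr3 (0.41, exact permutation p = 0.4, adjusted 0.4). Cxcr6 and Cxcr3 were tested only because they were high in the BCAS libraries, so their ratios are descriptions. With 2 sham libraries at 0 counts the size of the Cxcr6 difference depends on the prior count of 2, and it was 3.19 with a prior of 0.5 and 0.83 with a prior of 5. The Cxcr3 difference turned to -0.20 when a prior count of 5 replaced that of 2 in the log scale. The log2 ratio of Ccr2 to Cx3cr1 was -6.47 ± 0.18 in sham and -6.23 ± 0.30 in BCAS mice, a difference of 0.24 with overlapping groups (exact permutation p = 0.3, adjusted 0.333). That difference was 0.34 with a prior of 0.5 and 0.050 with a prior of 5. With single mice left out it ran from 0.099 (without BCAS mouse 2) to 0.39 (without BCAS mouse 1).

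**Figure D2:**
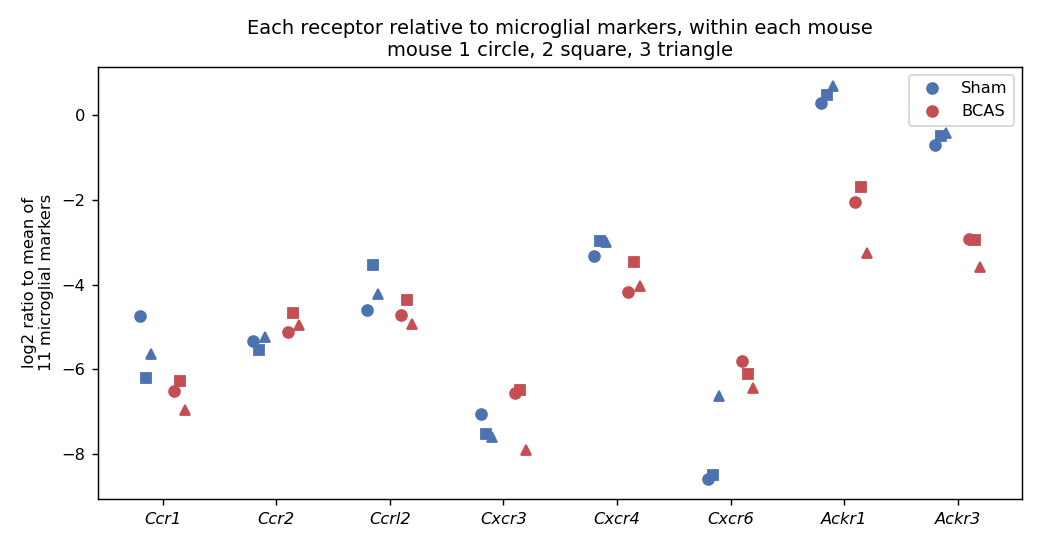
Log2 ratio of each receptor to the mean of 11 microglial markers, within each mouse, with sham in blue and BCAS in red. The red points lie above the blue points for Ccr2 and Cxcr6 and below them for Ccr1, Cxcr4, Ackr1 and Ackr3.

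The ligands of these receptors are secreted chemokines, with chemerin and MIF as ligands of other kinds. Of 16 ligand genes 14 were tested and 11 rose, with a median log2 fold change of 3.93, which was the same with Ccl3 at its lower bound. Over all tested genes 8.47% were called up. Ccl3, Ccl4, Ccl8, Ccl12 and Cxcl9 passed the filter on low counts through the BCAS libraries alone, so that their rise was a condition of being tested, and of the other 9 ligands 6 rose. All 6 tested ligands of CCR1 rose. Ccl3 had 3, 2 and 1 counts in sham and 453, 522 and 699 counts in BCAS mice, at least 202-fold higher than the limit of 3 counts per library (adjusted P = 4.87e-06). Ccl6 rose from 1.33 ± 0.591 to 60.8 ± 3.34 CPM (log2 fold change 5.50, adjusted P = 6.14e-06) and Ccl9 from 2.24 ± 0.229 to 26.7 ± 6.49 CPM (3.57, adjusted P = 1.43e-05). Ccl4 (5.59), Ccl5 (3.93) and Ccl8 (3.36) made up the rest of this group by log2 fold change. Without sham mouse 3 the remaining sham libraries held 1 and 2 counts of Ccl4, under the limit of 3, so its rise has no exact size there.

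For CCR2, all 3 tested ligands rose. Ccl2 had 12, 0 and 4 counts in sham and 23, 61 and 146 counts in BCAS mice, the BCAS mice differing widely among themselves. Its log2 fold change was 3.94 (SE 0.92, adjusted P = 0.012), and the call was lost without sham mouse 3 (adjusted P = 0.0572) and under a test against the fold threshold itself (glmTreat, 0.0754). Without sham mouse 1 the value for Ccl2 was 5.30, and without BCAS mouse 3 it was 3.08. Ccl12 rose by 5.53 and Ccl8, which it shares with CCR1, by 3.36 on the log2 scale, and Ccl12 stood at 4.87 without BCAS mouse 3. Ccl7 was too low to test, with 0, 2 and 4 counts against 4, 17 and 21 counts.

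The CXCR3 ligands Cxcl9 and Cxcl10 rose by 5.43 and 5.18 on the log2 scale, and Cxcl11 was too low to test. Cxcl10 went from 0.519 ± 0.359 to 19.0 ± 7.16 CPM (adjusted P = 0.000107). Cxcl9 had 6, 0 and 4 counts in sham and 75, 87 and 249 counts in BCAS mice, and its log2 fold change was 6.12 without sham mouse 1 and 4.67 without BCAS mouse 3. Cxcl16, the ligand of CXCR6, rose from 1.51 ± 0.351 to 18.3 ± 4.16 CPM (log2 fold change 3.59, adjusted P = 2.26e-05). For CXCR4 and ACKR3 the main ligand Cxcl12 was abundant at 82.7 ± 7.65 CPM in sham and 91.4 ± 5.78 CPM in BCAS mice and was not called (log2 fold change 0.14, SE 0.09, adjusted P = 0.247). Mif was at -0.09 (adjusted P = 0.465). The chemerin gene Rarres2, whose product CCRL2 binds, went from 3.96 ± 0.245 to 7.23 ± 0.793 CPM, and with a log2 fold change of 0.87 (adjusted P = 0.0041) it stayed under the fold threshold.

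**Figure D3:**
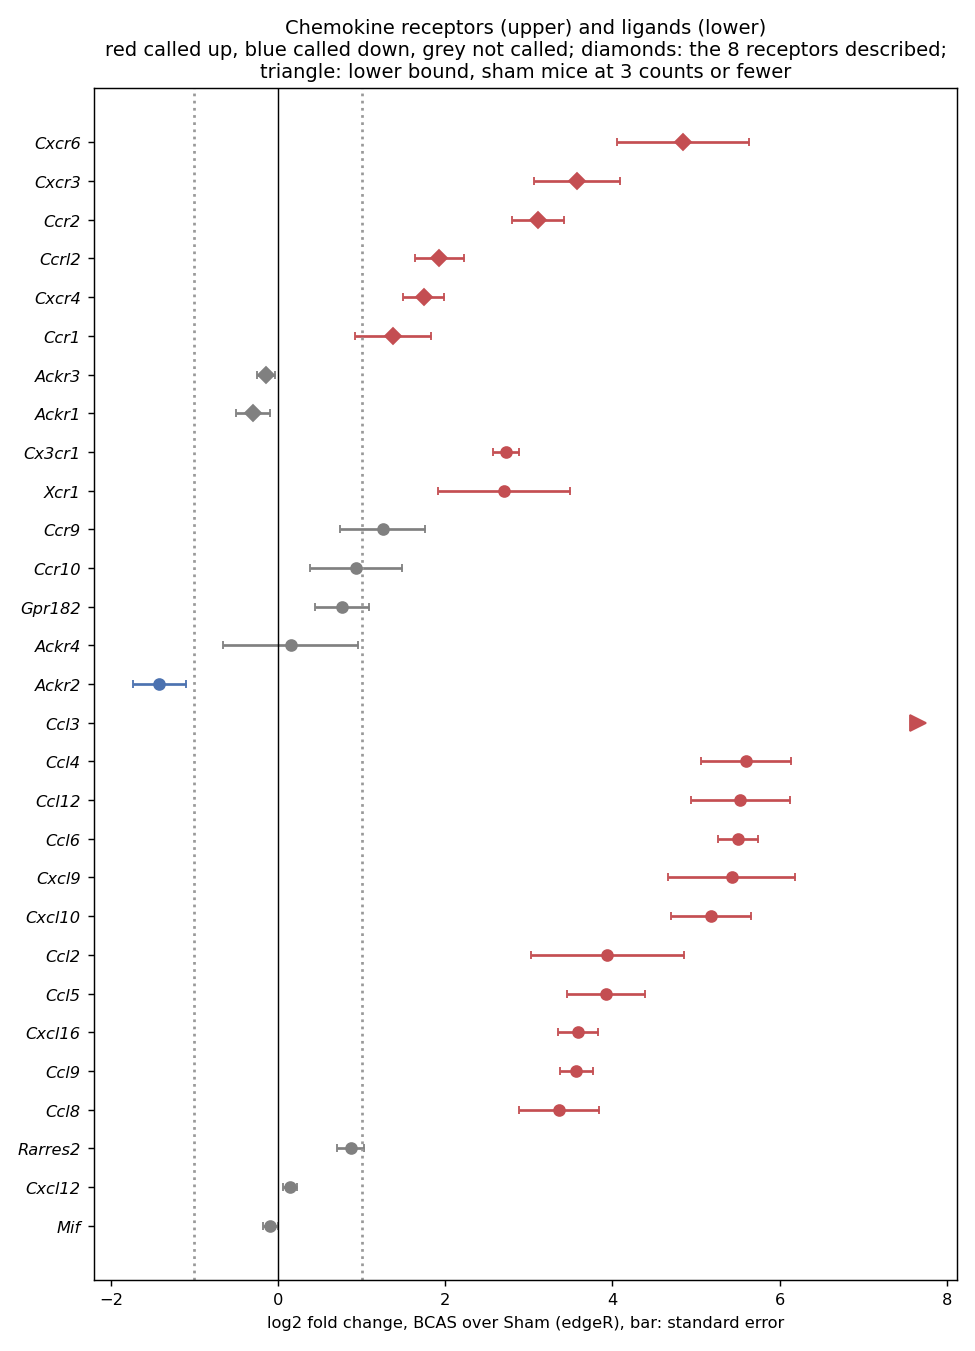
Log2 fold change, BCAS over sham, of the 8 receptors (diamonds), the other tested receptors and the tested ligands, with the standard error from edgeR. Dotted lines mark the fold threshold. The triangle of Ccl3 is a lower bound.

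Of 16 other chemokine receptor genes listed, 7 were tested, 2 rose and 1 fell, with a median log2 fold change of 0.93. The shares over all tested genes were 8.47% up and 0.999% down. Cx3cr1, the microglial receptor for fractalkine, went from 49.6 ± 2.66 to 328 ± 78.9 CPM (log2 fold change 2.73, adjusted P = 1.66e-05). Xcr1, known for cross-presenting dendritic cells, had 4, 0 and 1 counts in sham and 10, 10 and 12 counts in BCAS mice, with a log2 fold change of 2.70 and an adjusted P of 0.0302. Like Cxcr3 and Cxcr6, Xcr1 reached the filter minimum in no sham library. The Xcr1 call was lost when any mouse other than sham mouse 1 was left out (adjusted P from 0.0509 to 0.111). Without sham mouse 1 the remaining sham libraries held 0 and 1 counts, under the limit of 3, so the rise has no exact size there. The atypical receptor Ackr2, a scavenger of inflammatory CC chemokines, went the other way, from 47, 76 and 72 counts in sham to 23, 25 and 19 counts in BCAS mice. Its mean fell from 1.92 ± 0.47 to 0.715 ± 0.11 CPM (log2 fold change -1.42, SE 0.32, adjusted P = 0.00984). Ccr9, Ccr10, Gpr182 and Ackr4 were not called, though Ccr9 was without BCAS mouse 2. Among the 9 receptors too low to test, Ccr7 had 2, 0 and 4 counts in sham and 7, 34 and 25 counts in BCAS mice, and Cxcr2 had 0, 4 and 0 counts against 2, 20 and 15 counts.

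Several of these genes are neighbours. Chromosome 9 carries 14 of the 24 listed receptor genes, and 4 of them are members. Between chr9:123678439 and chr9:124113557, a stretch of 435119 bases, lie Ccr9, Cxcr6, Xcr1, Ccr1, Ccr1l1, Ccr3 and Ccr2. Of these 7 genes 4 rose, Ccr9 was not called (log2 fold change 1.25, adjusted P = 0.0925), and Ccr1l1 and Ccr3 had too few counts. The rise was called for 8.47% of all tested genes. Of the 4, Ccr1 and Xcr1 lost the call when any mouse other than sham mouse 1 was left out, which leaves 2 of the 4, and Cxcr6 and Xcr1 were tested through the BCAS libraries alone. Over the 5 tested genes of the stretch the log2 fold change ran from 1.25 for Ccr9 to 4.84 for Cxcr6. Elsewhere on the chromosome, Ccrl2 (1.93) and Cx3cr1 (2.73) rose, Ackr2 (-1.42) fell and Ackr4 (0.15) was not called.

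**Figure D4:**
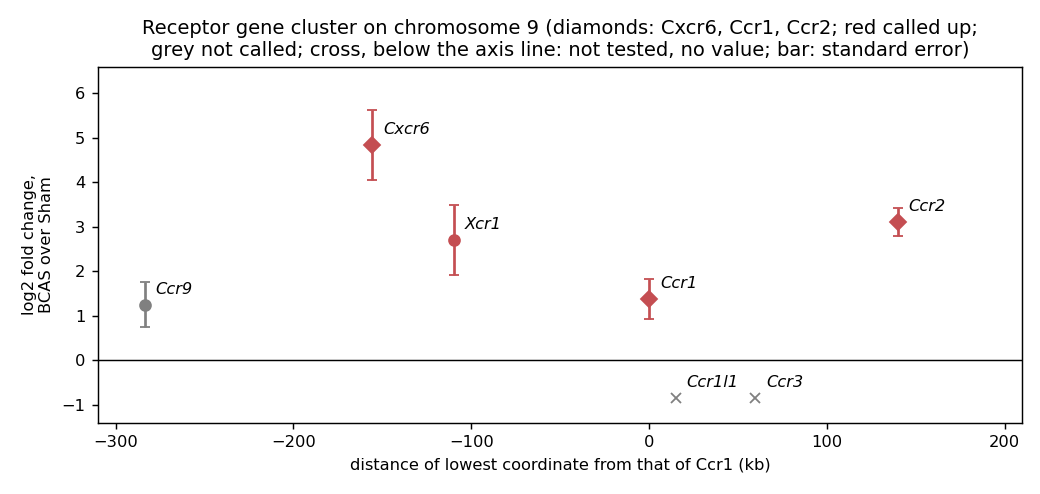
Log2 fold change of the clustered receptor genes on chromosome 9 against the distance of each gene's lowest coordinate from that of Ccr1, with standard errors. Cxcr6, Xcr1, Ccr1 and Ccr2 (red) were called up, Ccr9 was not, and crosses mark the untested Ccr1l1 and Ccr3.

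Downstream of the receptors, 38 of 40 genes for signalling, desensitisation and related chemoattractant receptors were tested, 14 rose and 1 fell, with a median log2 fold change of 0.58. Among all tested genes 8.47% were called up and 0.999% down. The largest rises were those of Rgs1, a brake on Gi signalling (4.52, adjusted P = 0.00112), the complement receptor C3ar1 (4.21, adjusted P = 2.75e-05), the haematopoietic GTPase Rac2 (3.48, adjusted P = 2.75e-05) and its exchange factor Dock2 (3.39, adjusted P = 2.26e-05). C5ar1 (3.27) and Vav1 (3.11) followed. Without sham mouse 3 the value of Rgs1 was 5.46, and Rgs1 also reached the filter minimum in no sham library. Of the 13 listed genes for G proteins, arrestins and GRK kinases, Gng5 rose (1.21, adjusted P = 0.000115). Under the fold threshold but with an adjusted P under 0.05 were Gnai2 (0.74), Gnai3 (0.47) and Arrb2 (0.41) in the upward and Gnai1 (-0.68), Gng2 (-0.59) and Grk6 (-0.23) in the downward direction, and the other 6 did not pass. Rgs14, a regulator of Gi signalling known for CA2 neurons, fell by 1.24 (adjusted P = 0.0015). In the same libraries all 11 microglial markers rose, 1 of 8 neuronal markers (Neurod6) fell and 5 others had an adjusted P under 0.05 with a smaller decrease, and their part in these differences was not tested.

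The genes outside all lists whose profile over the 6 libraries was most like that of a receptor were found by the Euclidean distance between log2 CPM values centred on the sham mean. The nearest were Fam167b (0.137) and Il10ra (0.202) for Ccr2, Nat2 (0.252) and Adam33 (0.261) for Cxcr4, and Abcc12 (0.326) and Bc1 (0.388) for Ccr1. For Ccrl2 they were Rrad (0.403) and Egr2 (0.462). Cxcr3 and Cxcr6 had no close profile, their nearest being C130050O18Rik (0.686) and H2-Aa (0.695) for Cxcr3 and Tnf (0.816) and Ctse (0.865) for Cxcr6. For the receptors that were not called, the nearest were Pnma1 (0.108) and Slc6a7 (0.176) for Ackr1 and Apopt1 (0.0389) and Sf3b4 (0.0458) for Ackr3. These distances describe 6 libraries and carry no test.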

How the data were processed

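RNA-seq of the right hippocampus was compared between 3 BCAS and 3 sham mice. The deposited values are raw counts, which the authors obtained from trimmed reads by HISAT2 alignment (mm10) and featureCounts. The file headers name featureCounts 2.0.3 with GENCODE vM20, unstranded, where the methods name version 1.6.3 and RefSeq genes. The BCAS columns are numbered 2 to 4 in the headers and 1 to 3 in the labels, whose numbers are used here. Mates were counted separately, and reads on several places or genes were not counted.

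Symbols came from GENCODE vM21 and matched 54723 genes. Genes kept by filterByExpr were scaled by TMM and tested with the edgeR 4.0.16 quasi-likelihood test (R 4.3.3) with Benjamini-Hochberg adjustment. CPM and RPKM use TMM library sizes, and log2 ratios a prior count of 2. The procedure was tested on simulated data. Alternatives used DESeq2 1.42.0, limma 3.58.1, other filters and scalings, and single mice left out.

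The members and gene lists were chosen with earlier results of these data known. Text names all 8 receptors, other receptors past the thresholds, all ligands, the 6 signalling genes of largest change at 1 CPM or more, the 2 nearest profiles of each receptor, marker genes and overlapping genes. A listed gene is not reported here. The second NF-kappa B form, Ccr7, Cxcr2 and the signalling genes of smaller change were chosen after values were seen.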

Additional observations from a re-analysis of the deposited data

How the results depend on the processing

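Over 16 alternatives, Ccr2, Ccrl2, Cxcr3, Cxcr4 and Cxcr6 were called up in each. Their log2 fold changes were 2.87 to 3.31, 1.72 to 2.25, 3.40 to 3.96, 1.58 to 1.97 and 4.29 to 5.70, in that order. The Cxcr6 range leaves out the fit without sham mouse 3, which has only a lower bound, 20.2-fold at the limit of 3 counts. The Cxcr3 range includes the fit without sham mouse 1. There both remaining sham libraries held 2 counts, under the limit of 3, and the fold has no exact size. Ackr1 (-0.55 to -0.11) and Ackr3 (-0.20 to -0.064) were called in none. Ccr1 (1.05 to 1.97) was also lost under glmTreat, whose null is a log2 change within 1. Replicate numbers did not pair the mice, since the correlations of same-numbered mice were 0.036, -0.314 and -0.158. With the replicate block 5 receptors were called up, without Ccr1 (1.49, adjusted P = 0.0776). With no filter beyond 1 count, 4 of the other receptors were called up (Cx3cr1, Ccr7, Cxcr2 and Cxcr5), and 1 (Cx3cr1) with glmTreat, the block, counts halved or BCAS mouse 3 left out, against 2. Over the 16 alternatives Ccr7 was called up in 6, Cxcr2 in 3, and Cxcr5 and Ccr9 in 1 each. Ligands called up numbered 10 to 12, with Ccl2 lost under glmTreat. Over all genes 5819 were called without the fold threshold and 818 with glmTreat, against 1762, and 23 signalling genes were called up without the threshold. The log2 ratio of Cxcr3 to microglial markers turned to -0.20 with a prior count of 5. Xcr1 was called up in 5 of the 16 and untested in 2 (counts halved, a mean of 10 counts), and was lost with DESeq2 (adjusted P = 0.0532), no filter (0.0543), the block (0.0705) and glmTreat (0.280). Ackr2 was lost with glmTreat (adjusted P = 0.509) and kept in the 15 others. With 3 mice a group and few counts in sham mice, the depth limits the size of the Cxcr3, Cxcr6 and Xcr1 differences.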
